A study of Mus musculus with 6 samples.

Results

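The axis examined here comprises 10 genes of the RANK, CD40 and lymphotoxin receptor signals in fetal thymic stroma, and how their transcripts changed with RANKL and with loss of Jmjd6. They are the receptor genes *Tnfrsf11a* (encoding RANK), *Cd40* and *Ltbr*, the decoy receptor gene *Tnfrsf11b* (osteoprotegerin), the ligand genes *Tnfsf11* (RANKL), *Lta* and *Ltb*, and the adaptor genes *Traf2*, *Traf3* and *Traf6*. The genes were taken by name, and each of the 10 had 1 entry of its own among the 22513 entries of the expression table. The samples were fetal thymus organ cultures of C57BL/6 background, from wild-type (WT) or *Jmjd6*-/- embryos, all grown for 4 days with 2-deoxyguanosine (2-DG) to deplete haematopoietic cells, then left unstimulated or given RANKL for 4 days. RNA was sequenced from 1 unstimulated WT, 1 unstimulated *Jmjd6*-/-, 2 RANKL-stimulated WT and 2 RANKL-stimulated *Jmjd6*-/- libraries, 6 in all. The *Jmjd6*-/- allele is carried by every cell of the culture, not by epithelium alone, and the labels call the repeated libraries technical duplicates, while the study's text calls them samples. Whether they came from separate cultures is thus not known, and the p-values measure only the spread between these libraries. Jmjd6 is a nuclear dioxygenase that acts on splicing regulatory proteins, and the study asked which genes upstream and downstream of *Aire* depend on it.

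RANK, CD40 and the lymphotoxin β receptor (LTβR) belong to the tumour necrosis factor (TNF) receptor family. Their ligands come from lymphoid tissue inducer cells and thymocytes and act on medullary thymic epithelial cells (mTECs), in which these receptors recruit TRAF adaptors and activate NF-κB by its canonical and alternative arms. RANK signalling is the main signal for the appearance of Aire-positive mTECs. Osteoprotegerin is a secreted receptor that binds RANKL and keeps it from RANK. TRAF2 and TRAF3 hold the NF-κB-inducing kinase low until a receptor is engaged, and TRAF6 is the adaptor through which RANK reaches the canonical arm.

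The values are FPKM, fragment numbers scaled by exon length and by the mapped fragments of the library, so levels of different genes can be compared per length. Depth was estimated at between 16000000 and 31400000 fragments a library. The 2 stimulated WT libraries differed by a median of 0.28 on the log2 scale over 12587 genes and the 2 stimulated *Jmjd6*-/- libraries by 0.08, so a value of the WT pair is the less certain. *Jmjd6* was at 25.9 to 32.5 FPKM in the 3 WT and at 1.32 to 1.96 FPKM in the 3 *Jmjd6*-/- libraries, and *Aire* was at 67.1 to 79.7 FPKM in the 4 stimulated and at 0.142 and 0.473 FPKM in the 2 unstimulated libraries. For the tests by limma, 0.1 was added to each FPKM before the logarithm was taken. They ran over the 15894 entries with a mean of at least 0.1 FPKM, and a difference was called at a Benjamini-Hochberg adjusted p under 0.05. All 10 genes passed this filter, which *Tnfsf11*, *Lta* and *Ltb* did through their stimulated libraries.

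With RANKL, 6 of the 10 genes rose and none fell. The 6 were *Tnfrsf11b*, *Tnfrsf11a*, *Ltb*, *Tnfsf11*, *Cd40* and *Traf2*. Of all genes tested, 10.5% were called higher and 4.11% lower. The median log2 change of the 10 genes was 1.53, beside -0.02 for all genes tested. In 8 of the 10 genes the 4 stimulated libraries all lay above both unstimulated libraries, an order found in 18.9% of all genes, and the exceptions were *Ltbr* and *Traf3*. *Tnfsf11* and *Ltb*, counted among the 6 and the 8, and *Lta*, counted among the 8, were tested only through their stimulated libraries. The counts and the median thus lean toward a rise. None of the 10 was called between stimulated *Jmjd6*-/- and WT stroma by limma, and 2 had an unadjusted p under 0.05, near the 18.8% of all genes that did. In none did both *Jmjd6*-/- libraries lie above both WT libraries, as in 24.5% of all genes, and in none did every stimulated WT library lie on one side of its unstimulated library and every stimulated *Jmjd6*-/- library on the other, as in 8.03% of all genes. Since bulk stroma was sequenced, more cells of a type and more RNA per cell cannot be told apart in any of these values.

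**Figure D1:**
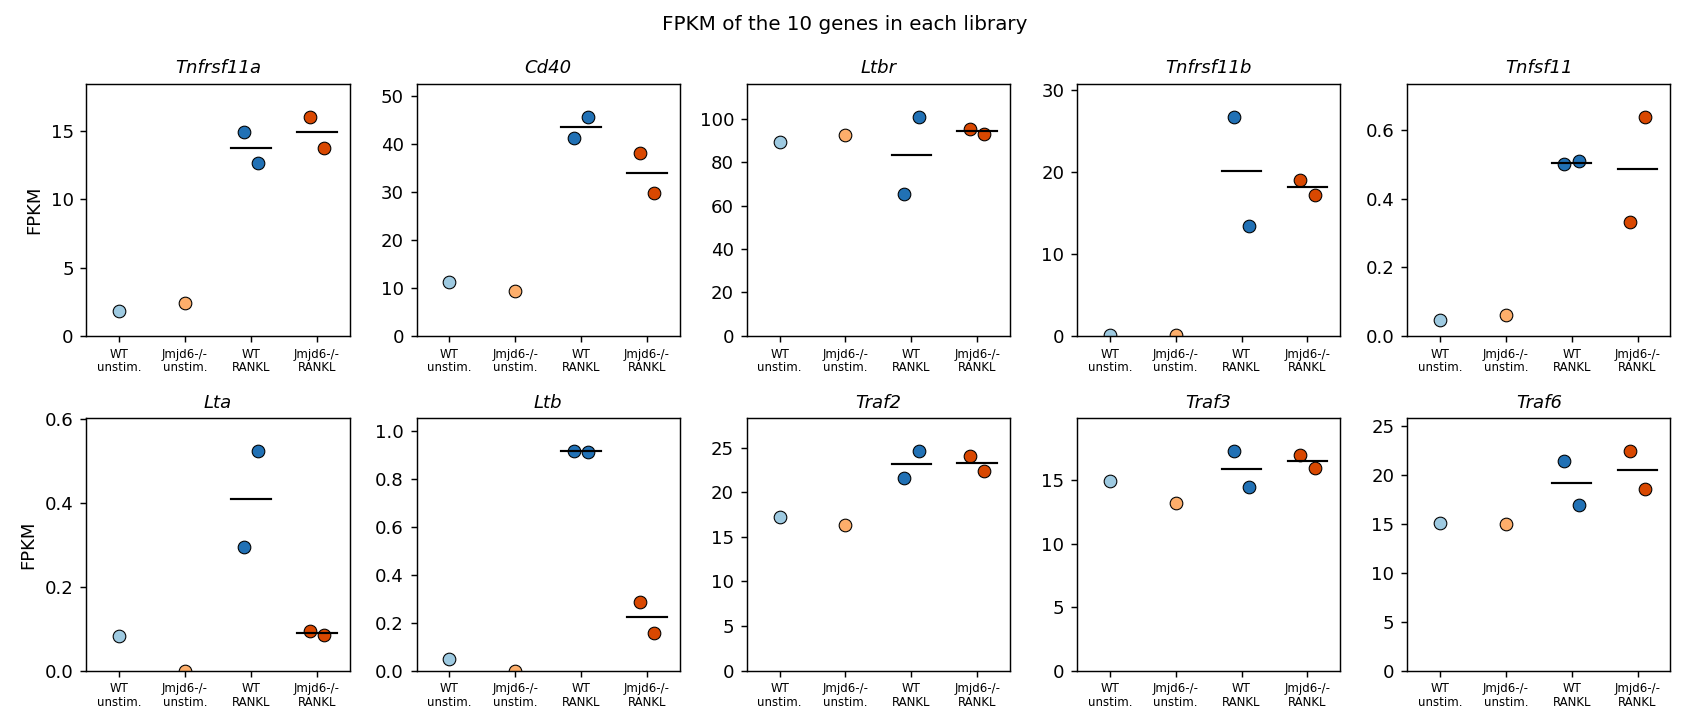
FPKM (y axes, linear from 0, a scale of its own for each gene) of the 10 genes in the 4 conditions (x axes). Each point is 1 library and each bar the mean of the 2 stimulated libraries of a genotype. *Tnfrsf11a*, *Cd40* and *Tnfrsf11b* stand well above their unstimulated values in both genotypes, *Ltbr* does not, and *Lta* and *Ltb* are higher in the stimulated WT than in the stimulated *Jmjd6*-/- libraries.

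The region upstream of a start site can hold binding sites for NF-κB, the factor that these receptors activate. RefSeq windows of GRCm38.p6, the assembly of mm10, were at hand for 8 of the 10 genes, without *Cd40* and *Tnfrsf11b*. The 250 bases before the start were searched on both strands for the 10-base NF-κB consensus motif, which occurred in 7.25% of the 32851 such windows. The start is that of 1 RefSeq transcript per window. For *Lta* (minus strand), most of the window, chr17:35205352-35205601, lies downstream of the outermost RefSeq start of the gene, at 35205578. Little sequence upstream of that start was thus searched for *Lta*. Of the 8 genes, *Ltb* and *Traf3* had a match. The match in *Ltb* lies 87 to 78 bases before the start, on the antisense strand. That in *Traf3* takes the last 10 bases of its window and lies downstream of the outermost RefSeq start of the gene, at 111166321 on chromosome 12, so it is not upstream of every transcript. Shown are the windows of *Ltb*, which was called higher with RANKL and had a match, and of *Tnfrsf11a*, which was called and had none, the latter without its last 50 bases, which follow the outermost RefSeq start. They are written 5′ to 3′ on the plus strand at chr17:35194257-35194506 and chr1:105780473-105780672, with the motif in capitals.
Ltb: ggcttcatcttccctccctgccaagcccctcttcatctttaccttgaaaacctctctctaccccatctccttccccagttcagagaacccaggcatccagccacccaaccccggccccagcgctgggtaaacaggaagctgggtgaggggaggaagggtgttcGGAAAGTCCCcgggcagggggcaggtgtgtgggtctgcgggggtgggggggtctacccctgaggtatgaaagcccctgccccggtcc
Tnfrsf11a: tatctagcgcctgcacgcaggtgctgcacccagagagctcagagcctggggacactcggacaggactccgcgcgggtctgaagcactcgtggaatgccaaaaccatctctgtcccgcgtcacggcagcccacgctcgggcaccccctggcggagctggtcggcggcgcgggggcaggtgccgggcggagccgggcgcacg
*Tnfsf11* and *Traf2* were also called and had no match in their windows. A match is a stretch of letters and does not show binding.

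*Tnfrsf11a* (XLOC_000309, mm10 chromosome 1, 105780723 to 105847981, plus strand) encodes RANK, the receptor of the added ligand. Without RANKL, the WT library held 1.84 FPKM and the *Jmjd6*-/- library 2.41 FPKM. With RANKL it had 14.9 and 12.6 FPKM in WT and 16.1 and 13.7 FPKM in *Jmjd6*-/- stroma. The stimulated values lay close together in both genotypes and apart from the unstimulated ones. The mean rose 7.48-fold in WT and 6.19-fold in *Jmjd6*-/- stroma. Over both genotypes the log2 change was 2.70 (SE 0.14, adjusted p = 8.36e-05 from limma), and between the stimulated genotypes the log2 ratio was 0.11 (SE 0.17, adjusted p = 0.782 from limma), less than the spread between the WT replicates.

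*Cd40* (XLOC_011094, chromosome 2, 165055636 to 165071654, plus strand), the receptor of CD40 ligand on thymocytes, was at 41.2 and 45.8 FPKM in stimulated WT and at 38.1 and 29.9 FPKM in stimulated *Jmjd6*-/- stroma. In the unstimulated libraries it had 11.3 and 9.46 FPKM. It was thus already expressed before RANKL at a higher level than *Tnfrsf11a*, and its ratio of stimulated to unstimulated means was lower, 3.83 in WT and 3.59 in *Jmjd6*-/- stroma. Both stimulated *Jmjd6*-/- libraries lay below both WT libraries, as 26.2% of all genes did. The log2 ratio of -0.36 (SE 0.16) had an adjusted p of 0.301 by limma, and the difference between the genotypes in the change with RANKL was -0.10 on the log2 scale (SE 0.27, adjusted p = 1 when rounded).

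*Ltbr* (XLOC_016942, chromosome 6, 125306571 to 125313870, minus strand) encodes the receptor of the membrane lymphotoxin of LTα and LTβ and of LIGHT. It had the highest level of the 10 genes in each of the 6 libraries. Without stimulation its FPKM was 89.2 in WT and 92.6 in *Jmjd6*-/- stroma. After RANKL the WT libraries held 65.6 and 101 FPKM and the *Jmjd6*-/- libraries 95.3 and 93.1 FPKM. The lowest and the highest value both came from stimulated WT stroma, so the groups overlapped. By limma, RANKL gave a log2 change of -0.05 (SE 0.17, adjusted p = 0.861). Between the stimulated genotypes the log2 ratio was 0.21 (SE 0.21, adjusted p = 0.667), which rested on the WT library used: without WT RANKL replicate 2 it was 0.52 (adjusted p = 0.0495) and without WT RANKL replicate 1 it was -0.10.

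The levels of the 3 receptors were less unequal after RANKL. *Tnfrsf11a* had 0.0207 and 0.0260 times the FPKM of *Ltbr* in the unstimulated WT and *Jmjd6*-/- libraries and 0.125 to 0.228 times in the 4 stimulated libraries. *Cd40* went from 0.127 and 0.102 times to between 0.321 and 0.628 times the FPKM of *Ltbr*. These ratios are taken within a library and do not depend on how libraries are scaled to each other.

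The largest change among the 10 was that of *Tnfrsf11b* (XLOC_006821, chromosome 15, 54250619 to 54278484, minus strand), the gene of the decoy receptor osteoprotegerin. Before RANKL it was at 0.0766 FPKM in the WT and at 0.148 FPKM in the *Jmjd6*-/- library, about 6 fragments in each library. With RANKL it reached 26.8 and 13.4 FPKM in WT and 19.1 and 17.2 FPKM in *Jmjd6*-/- stroma. The WT replicates differed from each other by more than the genotypes did. Over both genotypes the log2 change was 6.48 (SE 0.29, adjusted p = 5.95e-05 from limma), and it was 4.14 with 1 added to FPKM and 7.31 with 0.01 added, since the unstimulated values are near 0. As fragments, the rise was 306-fold in WT (95% exact binomial interval 140 to 834) and 130-fold in *Jmjd6*-/- stroma (59.6 to 355), intervals that cover counting error only. The log2 ratio of the stimulated genotypes was -0.07 (SE 0.34, adjusted p = 0.945).

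In unstimulated stroma *Tnfrsf11b* had 0.0415 times the FPKM of *Tnfrsf11a* in WT and 0.0614 times in *Jmjd6*-/- stroma. After RANKL the WT libraries gave ratios of 1.79 and 1.06, and those of *Jmjd6*-/- embryos 1.19 and 1.25. The transcript of the decoy receptor was thus below that of RANK in both unstimulated libraries and above it in all 4 stimulated libraries, with the stimulated libraries apart from the unstimulated ones and the genotypes overlapping.

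**Figure D2:**
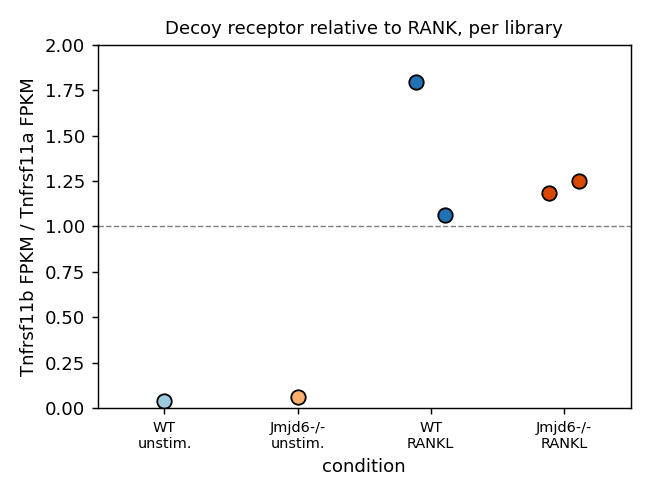
FPKM of *Tnfrsf11b* (osteoprotegerin) divided by that of *Tnfrsf11a* (RANK) in the same library (y axis, linear) by condition (x axis). Each point is 1 library, and the dashed line marks equal FPKM. The 2 unstimulated libraries are at 0.0415 and 0.0614 and the 4 stimulated ones between 1.06 and 1.79.

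The ligand genes were low in every library. *Tnfsf11* (XLOC_006303, chromosome 14, 78277446 to 78308043, minus strand) encodes RANKL itself, here the transcript of the cultured cells and not the added protein. It had 0.0474 and 0.0599 FPKM without stimulation, about 3 and 2 fragments. With RANKL it had 0.5 and 0.509 FPKM in WT and 0.333 and 0.640 FPKM in *Jmjd6*-/- stroma, or 30, 18, 19 and 27 fragments. The stimulated libraries lay above the unstimulated ones, and the *Jmjd6*-/- values enclosed the WT values. By fragments it rose 11.02-fold in WT (95% exact binomial interval 3.55 to 55.3) and 7.86-fold in *Jmjd6*-/- stroma (2.06 to 66.9). On the log2 scale the change was 1.93 (SE 0.32, adjusted p = 0.00966 from limma), a size that depends on the constant, with 0.50 when 1 was added to FPKM and 2.96 when 0.01 was. This call was lost without the unstimulated WT library (adjusted p = 0.113), without the unstimulated *Jmjd6*-/- library (adjusted p = 0.0619) and without the filter on low values (adjusted p = 0.05 when rounded).

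*Ltb* (XLOC_008190, chromosome 17, 35194507 to 35196305, plus strand), which encodes the membrane-anchoring chain of lymphotoxin, had 0.0497 FPKM in the unstimulated WT library, about 2 fragments, and is at 0 in the unstimulated *Jmjd6*-/- library. With RANKL it had 0.916 and 0.915 FPKM in WT and 0.287 and 0.159 FPKM in *Jmjd6*-/- stroma, or 27, 15, 8 and 3 fragments. Both WT libraries were above both *Jmjd6*-/- libraries, and all 4 were above the unstimulated ones. By limma *Ltb* rose by 2.21 on the log2 scale (SE 0.37, adjusted p = 0.00985), or by 0.58 with 1 added to FPKM and 4.22 with 0.01 added, a call lost without the unstimulated WT library (adjusted p = 0.116) and without the filter on low values (adjusted p = 0.0634). By fragments the ratio with RANKL was 14.5 in WT (95% exact binomial interval 3.76 to 123). In *Jmjd6*-/- stroma a count of 0 allows up to 0.186 FPKM at the depth of that library. This lies between the 2 stimulated values of 0.287 and 0.159 FPKM, so a rise there was not bounded away from none.

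*Lta* (XLOC_008717, chromosome 17, 35203165 to 35205351, minus strand) encodes the other chain of lymphotoxin and lies near *Ltb*, with *Tnf* between them. *Lta* had 0.295 and 0.523 FPKM in stimulated WT and 0.0940 and 0.0855 FPKM in stimulated *Jmjd6*-/- stroma. These are about 11 fragments in each WT library and 3 and 2 in the *Jmjd6*-/- libraries. Without stimulation it had 0.0832 FPKM in WT, about 3 fragments, and 0 in *Jmjd6*-/- stroma. The stimulated *Jmjd6*-/- libraries were near the unstimulated WT value and only the stimulated WT libraries stood clear of it. Its log2 change of 1.18 (SE 0.35, adjusted p = 0.0718 from limma) did not pass, and it passed with 0.01 added to FPKM (2.71, adjusted p = 0.0331) and without the trend (0.0375). In the *Jmjd6*-/- libraries a count of 0 allows more than the stimulated mean, so that a change with RANKL was not detectable there at this depth.

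*Ltb* and *Lta* had the largest differences between genotypes among the 10. Under RANKL the *Jmjd6*-/- to WT log2 ratio was -1.68 for *Ltb* (SE 0.34, unadjusted p = 0.00346, adjusted p = 0.0742 from limma, or -2.05 with 0.01 added) and -1.39 for *Lta* (SE 0.37, unadjusted p = 0.012, adjusted p = 0.13 from limma, or -0.37 with 1 added). Neither passed the threshold over all genes, at which 1.82% of genes were called lower and 0.516% higher in *Jmjd6*-/- stroma. By fragments, WT was above *Jmjd6*-/- stroma 3.92-fold for *Ltb* (42 against 11 fragments, 95% exact binomial interval 1.98 to 8.44) and 4.52-fold for *Lta* (22 against 5 fragments, 1.67 to 15.3), intervals that leave out the variation between cultures. *Lta* passed without WT RANKL replicate 1 (log2 ratio -1.72, adjusted p = 0.0362), and *Ltb* passed with 1 added to FPKM (log2 ratio -0.65, adjusted p = 0.0481) and with the replicate block (adjusted p = 0.0101). The difference between the genotypes in the change with RANKL was -1.10 for *Ltb* (SE 0.59) and -0.51 for *Lta* (SE 0.65), with adjusted p = 1 when rounded. Both rest on an unstimulated *Jmjd6*-/- library at 0, and with 0.01 added to FPKM both turned, to 0.53 for *Ltb* and 1.2 for *Lta*. Of the 9 T-lineage markers, *Lck* was higher in both stimulated WT libraries (1.91 and 1.71 FPKM) than in both *Jmjd6*-/- libraries (0.728 and 0.797 FPKM). *Cd3g*, under the filter, had the same order, at 0.0721 and 0.124 FPKM against 0 in both. *Cd4* (0.419 and 1.45 against 0.752 and 0.715 FPKM) and *Ptcra* (0.119 and 0.212 against 0.167 and 0.0569 FPKM) overlapped. The markers *Cd3e*, *Cd3d*, *Cd8a*, *Rag1* and *Rag2* were near 0 in every library. Their part in the result was not tested.

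Of the adaptors, *Traf2* (XLOC_011274, chromosome 2, 25517982 to 25546894, minus strand) rose and *Traf3* and *Traf6* were not called. *Traf2* had 17.3 and 16.3 FPKM in unstimulated WT and *Jmjd6*-/- stroma, and 21.6, 24.6, 24.1 and 22.4 FPKM in the stimulated WT and *Jmjd6*-/- libraries in turn. The 2 sets did not overlap, and the change was small: 0.46 on the log2 scale (SE 0.10, adjusted p = 0.0233 from limma), or 1.38-fold. This call was lost without either unstimulated library (adjusted p = 0.188 without that of WT and 0.216 without that of *Jmjd6*-/-), without *Jmjd6*-/- RANKL replicate 1 (0.111) or 2 (0.0876), without the filter (0.0659) and without the mean-variance trend (0.0592).

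*Traf6* (XLOC_010703, chromosome 2, 101678440 to 101700974, plus strand) had 15.1 and 14.99 FPKM without stimulation and 21.4, 16.9, 22.4 and 18.5 FPKM in the stimulated WT and *Jmjd6*-/- libraries in turn. All 4 stimulated values were higher, but the lowest only slightly so. The log2 change of 0.39 (SE 0.13) had an adjusted p of 0.106 by limma, and it passed without WT RANKL replicate 2 (0.47, adjusted p = 0.022) and with the replicate block (adjusted p = 0.0444). *Traf3* (XLOC_004303, chromosome 12, 111166548 to 111267148, plus strand) had 14.9 and 13.2 FPKM without stimulation and 17.3, 14.4, 17.0 and 16.0 FPKM with it. Its groups overlapped, the log2 change was 0.20 (SE 0.12, adjusted p = 0.297), and it passed only without WT RANKL replicate 2 (0.27, adjusted p = 0.0404). A gene on the other strand, *4930595D18Rik*, overlaps *Traf3*, and a pseudogene, *Gm13433*, overlaps *Traf2* on the other strand. Library preparation is not described as strand-preserving, so reads of such pairs cannot be told apart.

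**Figure D3:**
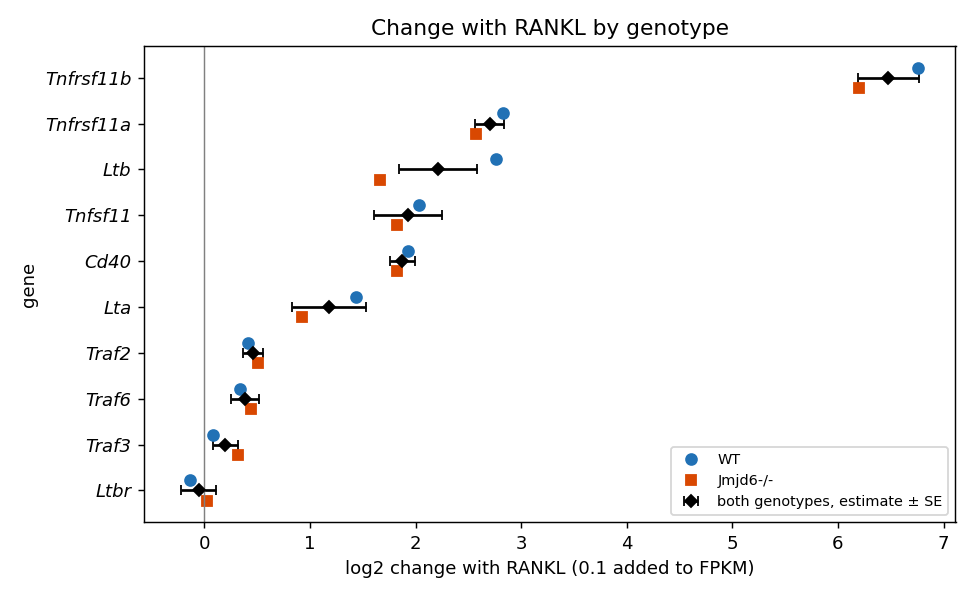
Log2 change with RANKL (x axis, 0.1 added to FPKM) of the 10 genes (y axis), in WT (circles), in *Jmjd6*-/- stroma (squares) and over both genotypes (diamonds, with bars of 1 SE). The order runs from *Tnfrsf11b* at 6.48 to *Ltbr* at -0.05, and the points of *Ltb* lie at 2.76 in WT and 1.66 in *Jmjd6*-/- stroma, the latter set by the constant, since the unstimulated library is at 0.

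Before RANKL the 10 genes spanned from about 0 to 92.6 FPKM. *Ltbr* stood alone at the top, *Traf2*, *Traf6*, *Traf3* and *Cd40* were between 9.46 and 17.3 FPKM, *Tnfrsf11a* was near 2, and the decoy receptor and the ligands were under 0.15 FPKM. After RANKL *Cd40* was second in all 4 libraries, above *Traf2* in each. *Traf2*, *Tnfrsf11b*, *Traf6*, *Traf3* and *Tnfrsf11a* then lay between 12.6 and 26.8 FPKM, and neighbours in that order were not separated by more than the spread between libraries. The ligands remained under 1 FPKM. In 7 of the 10 genes the log2 ratio of the stimulated genotypes was within 0.25 of 0, as in 55.9% of all genes. The others were *Cd40*, *Lta* and *Ltb*, in which both *Jmjd6*-/- libraries were below both WT libraries, near the 26.2% of all genes with that order. Between the unstimulated libraries, which have no replicates, the log2 ratio (0.1 added) of *Jmjd6*-/- to WT was from -0.87 for *Lta* to 0.49 for *Tnfrsf11b*. None of the 10 differed by more than 2-fold there on that scale, while 2.99% of all genes were over 2-fold higher and 3.45% over 2-fold lower. *Tnfsf11*, *Lta* and *Ltb*, all under 0.1 FPKM there, could not differ by more than 2-fold once 0.1 was added.

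Other genes of these pathways were taken as 4 lists holding 72 genes, of which 65 entries were tested. With RANKL, 19 of the 65 were called higher and none lower, where 10.5% of all genes tested were called higher and 4.11% lower. Some entries, among them *Cd70*, *Tnfrsf9* and *Tnfrsf17*, passed the filter on low values only through their stimulated libraries. The counts and medians of the receptor and ligand lists thus lean toward a rise. Of 23 other TNF receptor genes, 9 were called higher, with a median log2 change of 0.58 over the list. The largest were those of *Tnfrsf9*, which encodes the costimulatory receptor 4-1BB, and *Tnfrsf8*, which encodes CD30. *Tnfrsf9* went from 0.0374 and 0 FPKM to 3.33 and 3.44 FPKM in WT and 2.15 and 1.52 FPKM in *Jmjd6*-/- stroma (log2 change 4.46, SE 0.24, adjusted p = 0.000105 from limma). That size depends on the constant, since a library is at 0: it was 1.79 with 1 added and 6.84 with 0.01 added. *Tnfrsf8* went from 0.276 and 0.0496 FPKM to between 1.14 and 2.25 FPKM (log2 change 2.91, SE 0.43, adjusted p = 0.00652, or 1.22 with 1 added), a call lost without the filter on low values (adjusted p = 0.0832).

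Among the other TNF ligands, 3 of 8 entries tested rose. *Cd70*, the ligand of CD27, is at 0 in both unstimulated libraries and had 1.97 and 3.18 FPKM in stimulated WT and 2.47 and 3.71 FPKM in stimulated *Jmjd6*-/- stroma. Against the 3 fragments that a count of 0 allows per library, it was at least 18.7-fold higher in WT and at least 11.4-fold higher in *Jmjd6*-/- stroma. *Tnfsf9*, the ligand of 4-1BB, went from 0.305 and 0.0728 FPKM to between 2.28 and 3.37 FPKM (log2 change 3.35, SE 0.27, adjusted p = 0.000537 from limma, or 1.61 with 1 added). The ligand of CD40, *Cd40lg*, had at most 0.205 FPKM in any library and was under the filter.

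Of 17 other TRAF and adaptor genes, 3 were called higher, beside 10.5% of all genes tested. *Traf1*, an adaptor that NF-κB induces, went from 0.494 and 0.599 FPKM to 6.19 and 6.63 FPKM in WT and 8.61 and 7.72 FPKM in *Jmjd6*-/- stroma (log2 change 3.51, SE 0.14, adjusted p = 5.21e-05 from limma), and *Birc3*, the ubiquitin ligase that works with TRAF2, rose by 0.98 (SE 0.10, adjusted p = 0.00141). *Traf1* was thus the TRAF gene with the largest change, but at a lower level per length than *Traf2*, *Traf3* or *Traf6* in every library. Of 17 kinase and NF-κB genes, 4 rose, led by the inhibitor genes *Nfkbie* (log2 change 1.55, SE 0.14, adjusted p = 0.000868) and *Nfkbia* (1.14, SE 0.11, adjusted p = 0.00125). The medians of these 2 lists were 0.10 and -0.09. Between the stimulated genotypes 1 of the 65 entries was called, where 0.516% of all genes were called higher and 1.82% lower: *Ngfr*, the neurotrophin receptor gene, had 4.11 and 2.94 FPKM in WT and 1.02 and 0.953 FPKM in *Jmjd6*-/- stroma by limma (-1.72 on the log2 scale, SE 0.24, adjusted p = 0.0393), a call lost without *Jmjd6*-/- RANKL replicate 1 (adjusted p = 0.12) or 2 (0.165), with libraries scaled to equal totals (0.0524) and without the filter (0.199).

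**Figure D4:**
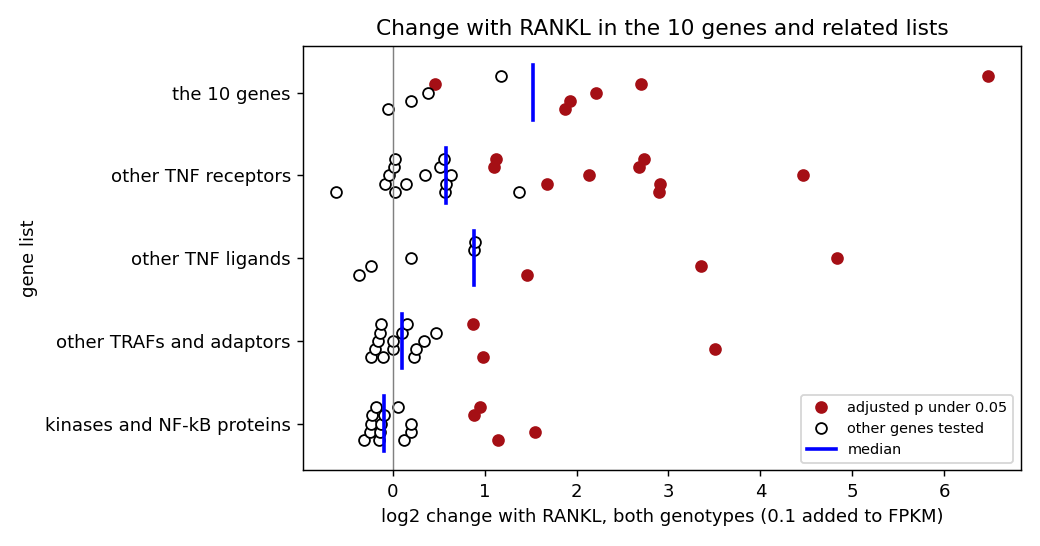
Log2 change with RANKL over both genotypes (x axis, 0.1 added to FPKM) of the 10 genes and of the 4 lists of related genes (y axis). Each point is 1 gene tested, filled where its adjusted p was under 0.05, and the bar is the median of the list. Medians run from 1.53 for the 10 genes and 0.89 for other TNF ligands to -0.09 for kinases and NF-κB proteins. The 10 genes and the receptor and ligand lists hold genes tested only through their stimulated libraries, so their medians lean toward a rise.

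The genes with the most similar pattern over the 6 libraries were sought among 12586 others with a mean of at least 1 FPKM, by the root mean square distance of log2 values centred on their mean. Those nearest to *Tnfrsf11a* were *Dusp4* (distance 0.0848), *Kcnk6* (0.101) and *Cacna1b* (0.107). *Dusp4*, the gene of a MAP kinase phosphatase, averaged 3.90 FPKM without and 26.2 FPKM with RANKL. Nearest to *Tnfrsf11b* were *Pglyrp2* (0.221), *Nkx2-6* (0.432) and *Serpinb12* (0.471). *Pglyrp2* was, like *Tnfrsf11b*, lower in WT RANKL replicate 2 than in replicate 1, at 12.4 and 22.2 FPKM. *Mesdc1*, *Prnp* and *Nans* were nearest to *Traf2* (0.0278 to 0.045). Genes that share 6 libraries also share what sets those libraries apart.

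Markers of the cells that could hold these transcripts were read in the same libraries. The 7 genes of epithelium and cortical epithelium summed to between 6725 and 10681 FPKM, so the cultures carried the thymic epithelium that the labels imply. Of 7 medullary markers, 5 rose with RANKL, *Aire* and *Cd80* among them, as *Tnfrsf11a* and *Cd40* did and *Ltbr* did not, and *Krt5* was not called (log2 change -0.21). In turn *Ly75* and *Prss16* were the 2 of 7 epithelial and cortical markers called, both lower. The medullary markers summed to 1153 and 1644 FPKM in stimulated WT and to 2078 and 2071 FPKM in stimulated *Jmjd6*-/- stroma, most of it *Krt5*. Under RANKL *Krt5*, *Krt14*, *Cldn4* and *Cd80* lay higher in both *Jmjd6*-/- libraries, *Aire* and *Fezf2* lower, and *Cldn3* overlapped. No medullary marker was called between genotypes. T-lineage markers were low, with *Cd3e*, *Cd3d*, *Cd8a*, *Rag1* and *Rag2* under 0.1 FPKM in all libraries and *Rag2* at 0. Their 9 genes summed to 1.11 and 1.75 FPKM without stimulation, to 2.64 and 3.52 FPKM in stimulated WT and to 1.75 and 1.65 FPKM in stimulated *Jmjd6*-/- stroma. The 6 markers of lymphoid tissue inducer and innate lymphoid cells summed to 1.84 to 3.44 FPKM, and the sums of the stimulated *Jmjd6*-/- libraries (2.89 and 3.04 FPKM) lay between those of WT (2.51 and 3.44 FPKM). *Ncr1* was at 0 in all libraries. The T-lineage sums of WT were above those of *Jmjd6*-/- stroma mainly through *Lck*. Among the innate genes, *Il22* (0.266 and 0.698 FPKM in WT, 0.2 and 0.0539 FPKM in *Jmjd6*-/- stroma) and *Ccr6* (0.678 and 0.82 against 0.642 and 0.406 FPKM) were lower in both *Jmjd6*-/- libraries under RANKL, in the order of *Lta* and *Ltb*, and *Il7r* was higher (1.01 and 1.39 against 1.60 and 2.19 FPKM), none of them called by limma between genotypes.

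Haematopoietic cells were not absent: 9 markers of B cells, dendritic cells and macrophages summed to between 341 and 415 FPKM in the 6 libraries, most of it *Lyz2*. With RANKL *Ptprc*, *Emr1* and *Csf1r* fell and *Itgax* rose, and *Cd40*, which such cells can also express, rose. The 7 mesenchymal markers summed to 635 to 697 FPKM in stimulated WT and 393 to 407 FPKM in stimulated *Jmjd6*-/- stroma. The 5 endothelial markers summed to 12.3 to 12.5 and 4.10 to 4.62 FPKM in turn. By limma *Col1a2*, *Col3a1*, *Pecam1* and *Cdh5* were called lower in stimulated *Jmjd6*-/- than in stimulated WT stroma (adjusted p = 0.035, 0.028, 0.0282 and 0.0282). The values of *Tnfrsf11b*, *Tnfrsf11a* and *Ltbr* overlapped between the stimulated genotypes. The 6 osteoclast markers, cells that carry RANK as well, summed to 22.2 and 29.6 FPKM without and 39.2 to 74.4 FPKM with RANKL, with *Mmp9* and *Ctsk* called higher. The rise of the sum was mainly that of *Mmp9* (13.8 and 10.3 FPKM without, 23.7 to 54.1 FPKM with RANKL). *Acp5* (log2 change -0.03), *Ocstamp* (-0.36), *Dcstamp* (1.38) and *Calcr* (1.29) were not called with RANKL. The osteoclast sums were 62.8 and 74.4 FPKM in stimulated WT and 39.2 and 48.1 FPKM in stimulated *Jmjd6*-/- stroma. *Mmp9* had 48.3 and 54.1 FPKM against 23.7 and 24.7 FPKM there. It was called lower in stimulated *Jmjd6*-/- stroma (log2 ratio -1.08, SE 0.12, adjusted p = 0.028 from limma). How far any of these cells contributes to the 10 genes was not tested.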

How the data were processed

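Poly-A RNA of fetal thymus organ cultures was sequenced in paired-end mode, in 6 libraries. Per the labels and the study's methods, the authors mapped filtered reads to mm10 with TopHat2 2.0.10 and deposited FPKM per gene, computed by Cufflinks 2.1.1, which was set to correct for multiply mapped reads and to expect stranded libraries, although the kit named does not mark strand. FPKM were used as deposited. Library totals ran from 501418 to 564985 FPKM, so no common total had been set. Groups and replicate numbers came from the sample titles. The labels' treatment field gives RANKL for every sample, while titles and stimulation field separate the unstimulated ones.

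Log2 values with 0.1 added were fitted with limma 3.58.1 in R 4.3.3 with a mean-variance trend, over entries with a mean of at least 0.1 FPKM, and p-values were adjusted by Benjamini-Hochberg over all of them. RANKL was tested with genotype as a term over 6 libraries, and genotype under RANKL (2 against 2) and the difference in response in a model of 4 conditions, in which unstimulated libraries add nothing to the spread and are assumed to vary like the others. The fits were checked on simulated data. Depth was estimated from the FPKM of single fragments over 8424 genes with 1 annotated transcript (GENCODE M21), with 150 bases taken off its length, and is approximate. Fragment numbers are rounded, a 0 was read as up to 3 fragments, and intervals cover counting error only. Starts were converted to 1-based coordinates. Python 3.11.15, numpy 2.4.6, pandas 2.3.3 and scipy 1.17.1 were used.

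The 10 genes and the lists were chosen with earlier results of these data known. Named besides them are, per list of related genes, up to 2 called genes per direction, those of greatest size, and the 3 genes nearest in pattern to each called gene with a mean of at least 1 FPKM (those of *Cd40* are not reported here). *Cd40lg*, *Pglyrp2* and the markers given with values were singled out for their values. The settings varied were the constant (1 or 0.01), the filter (none, or 1 FPKM), the trend (none), 2 scalings, each library left out, the replicate number as a term, and a fit of the 4 stimulated libraries. Chosen after seeing the data was no filter without entries at 0 in all libraries.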

Additional observations from a re-analysis of the deposited data

Results flagged for a closer look

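Among the 75 entries of the 10 genes and the related lists that were tested, 8 moved with RANKL in opposite directions in the 2 genotypes, both stimulated libraries of a genotype each time, as 8.03% of all genes tested did. None was one of the 10 genes. The unstimulated libraries have no replicates, and by the interaction term of limma none of the differences passed (adjusted p = 1 when rounded). On the log2 scale, the change in *Jmjd6*-/- less that in WT stroma was -0.10 for *Tnfrsf1b* (-0.099), -1.42 for *Cd27*, 0.75 for *Eda2r* (0.749), -0.54 for *Ngfr* (-0.535), 1.09 for *Tnf*, -0.71 for the shared entry of *Tnfsf12* and *Tnfsf13* (-0.707), 0.25 for *Traf7* (0.247) and -0.48 for *Tifa* (-0.485). *Tnf*, which lies between *Lta* and *Ltb*, went from 1.30 FPKM to 0.856 and 0.594 FPKM in WT and from 0.564 FPKM to 0.661 and 0.789 FPKM in *Jmjd6*-/- stroma, and so was not higher in WT under RANKL as they were.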

How the results depend on the processing

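*Tnfrsf11a*, *Tnfrsf11b* and *Cd40* were called higher with RANKL under all 15 alternatives, with log2 changes of 2.30 to 2.83, 4.14 to 7.31 and 1.79 to 1.96. Of the 10 genes, 6 were called, 3 without the filter on low values, and 3 to 8 with each library left out. Over all genes 1675 were higher and 654 lower: 788 and 299 without the filter, 398 lower without the trend, and 623 to 2165 higher and 54 to 1478 lower with each library left out. Between the stimulated genotypes 82 genes were higher and 290 lower in *Jmjd6*-/- stroma: 1 and 1 without the filter, 0 and 0 when entries at 0 in all libraries were then left out, 180 lower with 0.01 added, 172 lower with a filter at 1 FPKM, and 20 to 2254 higher and 68 to 1737 lower with each stimulated library left out. With the replicate block they were 396 and 1081, and 1 of the 10 genes was lower, as with 1 added to FPKM; leaving out a library gave 0 to 1 lower and 0 to 1 higher. In the difference of response 0 genes were called in either direction by limma, against 664 at an unadjusted p under 0.05: 93 higher and 83 lower without the filter, 27 and 67 with the replicate block, and 0 to 4 and 0 to 1 with a library left out. The replicate numbers were not shown to pair samples (r = -0.0778 over 12587 genes between the replicate differences of the genotypes). The cause of these changes was not tested.

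Signs turned only for values that were not called. Scaling to equal totals and by median ratio took the genotype ratio of *Traf2* to -0.00219 and -0.019, and with 0.01 added the difference of response was 1.2 for *Lta* and 0.53 for *Ltb*. With each library left out, where a lone library is assumed to vary like the others, the change of *Ltbr* with RANKL ran from -0.175 to 0.0915. The genotype ratio ran from -0.00709 to 0.233 for *Tnfrsf11a*, -0.561 to 0.429 for *Tnfrsf11b*, -0.481 to 0.29 for *Tnfsf11*, -0.102 to 0.521 for *Ltbr*, -0.0823 to 0.102 for *Traf2*, -0.0684 to 0.189 for *Traf3* and -0.0708 to 0.266 for *Traf6*. The difference of response ran from -0.598 to 0.173 for *Tnfsf11*, -0.277 to 0.071 for *Cd40*, -0.156 to 0.467 for *Ltbr* and -0.0603 to 0.277 for *Traf6*. *Tnfsf11*, *Lta* and *Ltb* were not tested with the filter at 1 FPKM. Depth limits *Lta* and *Ltb* most, with 0 to 27 fragments a library.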
